A study of Homo sapiens with 6 samples.

Results

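The genes described here are 43 genes that copy DNA or start S phase, listed by symbol for their known role, among the 62710 genes of the deposited table. The list has no threshold on any value, but it was drawn up with earlier results of these data known. They comprise 12 genes of origin licensing, 8 of helicase activation, 6 of the sliding clamp and its loader, 6 of the replicative polymerases, 4 of single-strand binding and Okazaki fragment processing, 2 of nucleotide reduction and 5 regulators of the G1/S transition. RNA was sequenced from HT1080, an established human fibrosarcoma cell line, in 3 libraries of untreated cells and 3 libraries of cells treated with 20 ng/mL interferon-β (IFNβ) for 24 h. Both groups carry no other agent or genetic change in the labels. The labels name human IFNβ, whereas the study's sequencing methods name mouse IFNβ for its human and mouse cells alike. The study's methods state for its in vitro experiments in general that replicates were biological and independent, and the labels do not say whether the 3 libraries of a group came from separate cultures. The p-values measure the spread between these libraries, which may be technical if they did not.

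Replication origins are licensed in G1, when the origin recognition complex, CDC6 and CDT1 load the MCM2 to MCM7 ring onto DNA. At the G1/S transition cyclin E with CDK2, and the kinase CDC7 with DBF4, turn this ring into an active helicase together with CDC45 and the GINS complex, and the polymerases, the clamp PCNA and its loader then assemble at the fork. Many of these genes are transcribed by E2F factors, whose activity rises when the retinoblastoma protein is phosphorylated, and interferons are known to slow the proliferation of many cell types.

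The libraries held between 22848104 and 32915500 fragments, and the values are FPKM, fragment numbers that the authors divided by library size and gene length. The number of fragments behind each value was recovered from the FPKM. Gene locations below are those of GENCODE release 29 on GRCh38. Every one of the 43 genes was well covered, with between 169 (E2F2) and 13254 (MCM7) fragments in a library. As a check of the treatment, the interferon response genes IFIT1, MX1 and ISG15 rose in all 3 treated libraries. IFIT1 measured 0.873, 0.935 and 0.942 FPKM in the untreated libraries and 414, 409 and 415 FPKM after IFNβ, and the log2 fold changes were 8.67, 7.70 and 7.09 in that order (limma adjusted p = 5.2e-10, 1.2e-07 and 1.2e-09). All 10 mesenchymal markers were measured above the filter, at a summed level of 1374 to 1393 FPKM in untreated and 1355 to 1405 FPKM in treated libraries. Of these 10 markers 2 were lower, with VIM at -0.29 on the log2 scale, and 4 were higher, with FN1 at 0.51. The 6 leukocyte markers summed to at most 0.237 FPKM in any library, the 5 endothelial markers to 0.614 to 0.730 FPKM before and 0.742 to 0.885 FPKM after IFNβ, and the 7 epithelial markers to 0.256 to 0.464 and 0.626 to 0.661 FPKM, most of it CLDN4. Mitochondrial transcripts took 2.91% to 3.15% of the fragments in untreated and 2.74% to 2.77% in treated libraries. The part of these differences in the results was not tested.

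After IFNβ, 28 of the 43 genes were lower and 5 were higher, and 10 did not pass the test. A gene passed where its Benjamini-Hochberg adjusted p-value was under 0.05 in limma on log2(FPKM + 0.1), fitted across the 20716 genes with a mean of at least 0.1 FPKM. Over all those genes 17.5% were lower and 15.2% were higher. All 43 replication genes averaged at least 1 FPKM. Among the 11996 genes with such a mean the same fit called 28.3% lower and 21.1% higher, against 65.1% and 11.6% of the replication genes. The replication genes were more abundant than these, with a median untreated level of 19.1 against 6.37 FPKM. Their median standard error was smaller, 0.034 against 0.050. How far this raised the share that passed was not tested. The changes were small. The log2 fold changes ran from -1.02 for GINS4 to 0.35 for ORC6, with a median of -0.17. The median was 0.00017 over all genes tested and -0.034 over those with a mean of at least 1 FPKM. GINS4 alone reached -1 while none of the 43 reached 1. The value of GINS4 lay between -1.04 and -0.99 with 1 library left out. In the same fit 0.739% of all genes fell and 3.49% rose by at least 1 on the log2 scale. The treated libraries lay entirely below the untreated ones for 31 of the 43 genes and entirely above for 5, where 24.3% and 22.3% of all genes tested did so. Of the 11996 genes with a mean of at least 1 FPKM, 4294 lay entirely below and 3227 entirely above in the treated libraries.

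The decrease was of similar size in each treated library. Relative to the untreated mean, the median replication gene stood at 0.011, -0.013 and -0.000038 on the log2 scale in the untreated libraries and at -0.17, -0.19 and -0.20 in the treated ones. The summed level of the 43 genes was 1213 ± 7.31 FPKM in untreated and 1080.2 ± 4.50 FPKM in treated cells (mean ± S.D., n = 3 each), and their share of all fragments went from between 0.481% and 0.491% to between 0.431% and 0.438%. In bulk RNA, fewer cells in S phase and less RNA per cell cannot be told apart. Between untreated level and log2 fold change, the Spearman correlation was 0.101 and the Pearson correlation 0.0745 over the 43 genes, which share the same 6 libraries and are not independent.

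**Figure D1:**
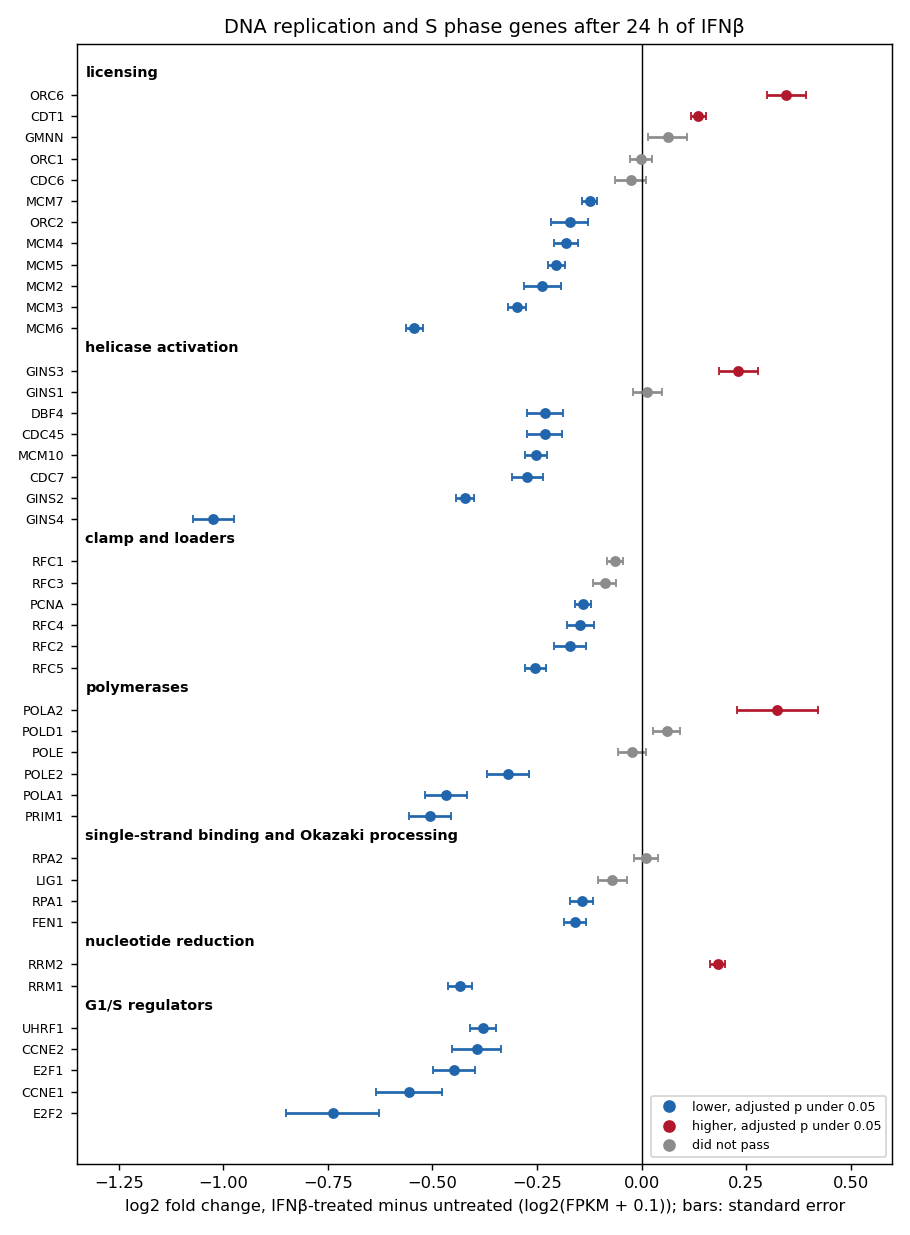
Log2 fold change (IFNβ-treated minus untreated, on log2(FPKM + 0.1)) of the 43 genes, grouped by role, with bars for the standard error. Of the genes, 28 are lower (blue), 5 higher (red) and 10 did not pass (grey), and GINS4 lies farthest from 0 at -1.02.

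**Figure D2:**
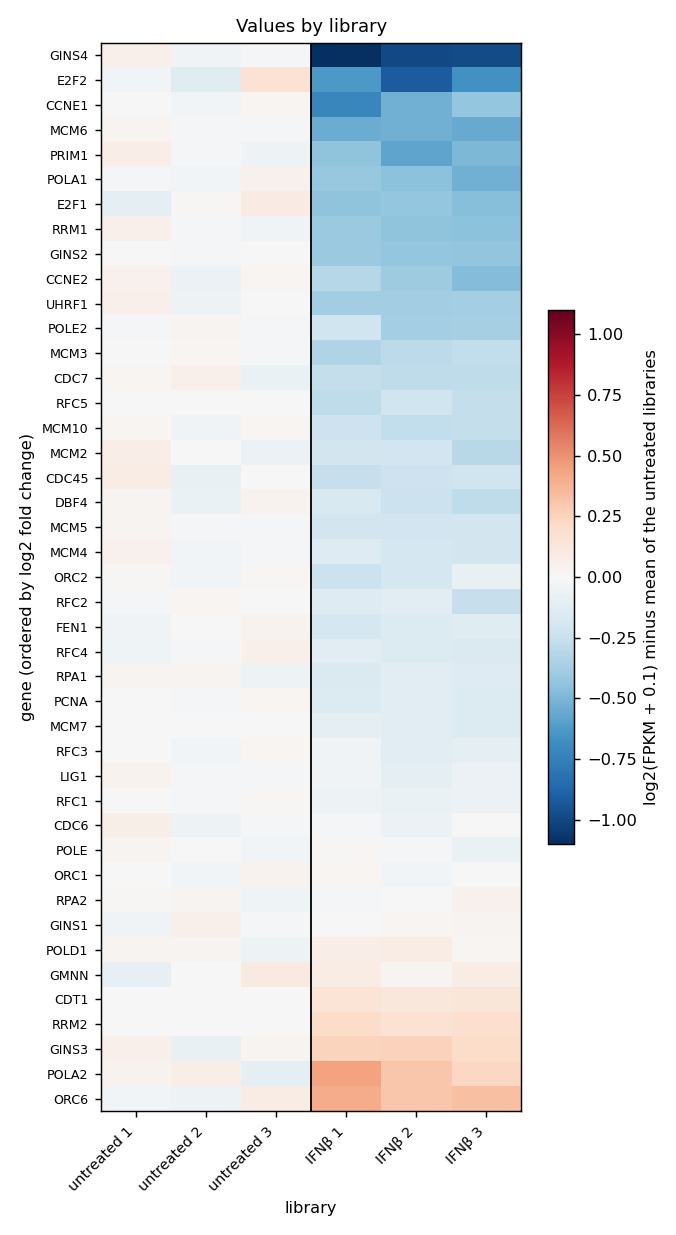
Log2(FPKM + 0.1) of each gene in each of the 6 libraries minus the mean of the 3 untreated libraries, with genes ordered by log2 fold change. The 3 treated columns resemble each other from GINS4 at the top to ORC6 at the bottom.

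Promoter sequences are shown for 5 genes that fell and hold a word bound by E2F factors, because E2F is the transcription factor family that ties these genes to S phase entry. Each is the 250 bases before the RefSeq start on GRCh38.p14, written 5′ to 3′ on the strand of the gene, with the E2F words in capitals. In MCM6 each capital run is a pair of words on opposite strands that overlap.
E2F2 promoter, chr1:23531234-23531483, minus strand: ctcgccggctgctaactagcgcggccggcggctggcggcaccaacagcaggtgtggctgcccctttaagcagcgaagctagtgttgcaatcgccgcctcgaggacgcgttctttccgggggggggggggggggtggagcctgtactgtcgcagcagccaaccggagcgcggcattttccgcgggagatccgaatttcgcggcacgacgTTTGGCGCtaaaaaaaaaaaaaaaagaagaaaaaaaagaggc
MCM6 promoter, chr2:135876444-135876693, minus strand: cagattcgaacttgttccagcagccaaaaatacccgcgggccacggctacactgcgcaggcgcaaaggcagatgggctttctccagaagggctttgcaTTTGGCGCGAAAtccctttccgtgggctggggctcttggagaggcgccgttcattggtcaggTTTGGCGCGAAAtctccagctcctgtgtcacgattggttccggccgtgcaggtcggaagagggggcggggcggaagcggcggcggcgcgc
POLA1 promoter, chrX:24693668-24693917, plus strand: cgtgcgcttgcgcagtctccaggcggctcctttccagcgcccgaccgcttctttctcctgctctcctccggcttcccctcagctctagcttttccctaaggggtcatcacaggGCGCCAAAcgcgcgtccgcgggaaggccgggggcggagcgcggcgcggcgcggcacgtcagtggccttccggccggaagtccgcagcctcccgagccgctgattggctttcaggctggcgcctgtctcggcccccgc
E2F1 promoter, chr20:33686386-33686635, minus strand: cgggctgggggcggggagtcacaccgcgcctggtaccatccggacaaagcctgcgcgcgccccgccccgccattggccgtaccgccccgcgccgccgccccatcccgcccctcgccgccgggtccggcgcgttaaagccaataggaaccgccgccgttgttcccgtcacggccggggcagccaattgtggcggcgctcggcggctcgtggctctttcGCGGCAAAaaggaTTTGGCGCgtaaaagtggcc
GINS2 promoter, chr16:85688955-85689204, minus strand: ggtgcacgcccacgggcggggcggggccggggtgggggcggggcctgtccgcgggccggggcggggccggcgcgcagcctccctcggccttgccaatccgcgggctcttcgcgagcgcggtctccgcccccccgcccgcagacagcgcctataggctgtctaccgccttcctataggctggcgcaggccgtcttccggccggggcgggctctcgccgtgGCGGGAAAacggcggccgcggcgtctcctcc

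The words searched were TTTCCCGC, TTTGGCGC, TTTCGCGC and TTTGCCGC on both strands, from 250 bases before to 50 bases after the start. A promoter was found in the RefSeq table for 38 of the 43 genes, and MCM4, MCM5, GINS4, RPA2 and CCNE2 had no entry. At least 1 E2F word was present in 19 of the 38 (50%), compared with 3.33% of all 27305 promoters in the table. The word was present in genes of every direction. It was found in 11 of 24 genes that fell, in 3 of 5 that rose (CDT1, GINS3 and POLA2) and in 5 of 9 that did not pass. The median log2 fold change was -0.14 with the word and -0.17 without it. Only these 4 exact words were searched, so a gene without a match may still hold another E2F site. Of the 26 words in these 19 promoters, 20 lay between 100 bases before and 50 bases after the start. MCM6 held 4 words and E2F1, which encodes an E2F factor itself, held 2.

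Other elements were searched in the same windows on both strands. The CCAAT box, bound by NF-Y, was present in 22 of 38 promoters (57.9%) and in 35.7% of all promoters. The interferon-stimulated response element core GAAANNGAAA was found in 1 of the 38, that of ORC2, and in 3.65% of all promoters. The cell cycle homology region TTTGAA was found in 2, those of DBF4 and RRM1, and in 15.4% of all promoters. These matches describe letters in a window and say nothing about binding in HT1080 cells.

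**Figure D3:**
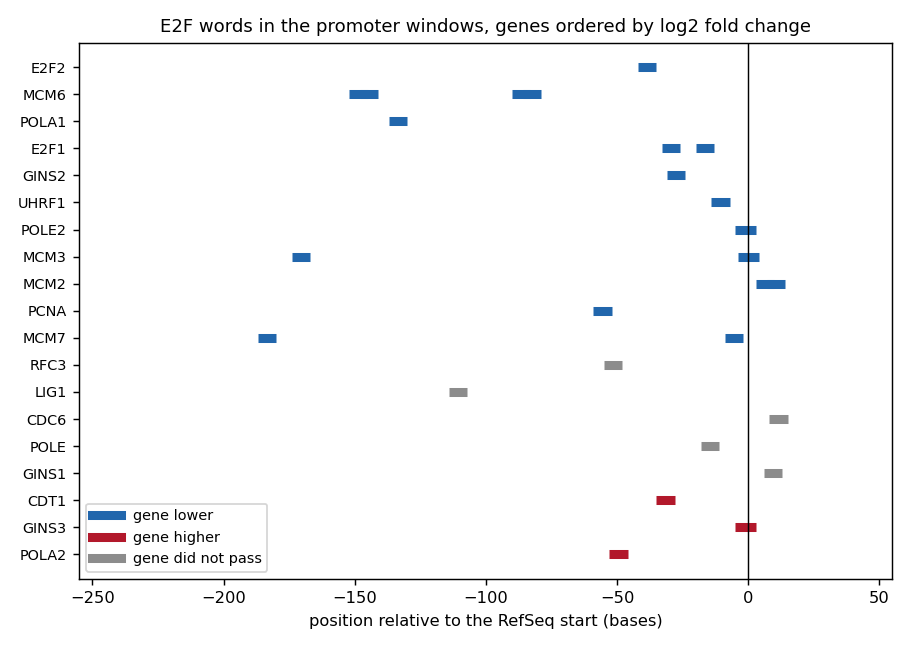
Positions of E2F words in the promoter windows of the 19 genes that hold one, in bases from the RefSeq start, with genes ordered from the lowest to the highest log2 fold change and coloured by call. Words lie near the start in genes that were lower, higher or not called.

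Among the 12 licensing genes 7 fell, 2 rose and 3 did not pass. For this role and each role below, the shares among genes with a mean of at least 1 FPKM were 28.3% lower and 21.1% higher. The 6 subunits of the MCM ring all fell, with a median log2 fold change of -0.22, and their summed level went from between 298 and 306 FPKM to between 253 and 258 FPKM. MCM6 (ENSG00000076003, chromosome 2, 135839626 to 135876426, minus strand) changed most and measured 36.5, 35.5 and 35.3 FPKM in the untreated libraries and 24.5, 24.7 and 24.3 FPKM after IFNβ. Its treated libraries were about equal and all lay far below the untreated ones (log2 fold change -0.54, standard error 0.021, limma adjusted p = 9.3e-06). MCM3 (ENSG00000112118, chromosome 6, 52264009 to 52284881, minus strand) measured 55.9, 57.2 and 55.6 FPKM in the untreated libraries and 44.7, 46.0 and 46.5 FPKM after IFNβ, again without overlap (log2 fold change -0.30, standard error 0.022, limma adjusted p = 0.00017). The other ring subunits fell by less, with log2 fold changes of -0.24 for MCM2, -0.20 for MCM5, -0.18 for MCM4 and -0.12 for MCM7, which was the most abundant of the 6 per length at 91.3 FPKM in untreated cells. The subunits act in equal number in the ring, and the log2 fold changes of their RNA ranged from -0.54 to -0.12.

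The genes that load the ring moved in both directions. ORC6 (ENSG00000091651, chromosome 16, 46689643 to 46698394, plus strand), the smallest subunit of the origin recognition complex, measured 9.58, 9.42 and 10.3 FPKM in the untreated libraries and 13.0, 12.1 and 12.3 FPKM after IFNβ and had the largest rise of the 43 genes in this fit (log2 fold change 0.35, standard error 0.046, limma adjusted p = 0.0019). CDT1 (ENSG00000167513, chromosome 16, 88803213 to 88809258, plus strand), which brings the MCM ring to the origin, measured 26.3, 26.5 and 26.2 FPKM in the untreated libraries and 29.2, 28.7 and 28.8 FPKM after IFNβ. The rise of CDT1 was small and the libraries of a group differed little (log2 fold change 0.14, standard error 0.018, limma adjusted p = 0.0017). Every treated library lay above every untreated one, as for 3227 of the 11996 genes with a mean of at least 1 FPKM. ORC2, another subunit of the origin recognition complex, was lower at -0.17 (limma adjusted p = 0.026), a call that was lost when any library other than the third treated one was left out, with log2 fold changes between -0.19 and -0.14. ORC1, which binds ATP in the complex, stood at -0.0015 with a 95% interval of -0.067 to 0.064. CDC6, the loading ATPase, stood at -0.026 (-0.12 to 0.063), and GMNN, whose product geminin inhibits CDT1, at 0.062 (-0.053 to 0.18). The groups overlapped for all 3 of these genes.

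Of the 8 helicase activation genes 6 fell, 1 rose and 1 did not pass. GINS4 (ENSG00000147536, on chromosome 8, plus strand), which encodes the SLD5 subunit of the 4-part GINS complex, measured 6.94, 6.49 and 6.54 FPKM in the untreated libraries and 3.06, 3.30 and 3.32 FPKM after IFNβ. This was the largest change of the 43 genes, and the treated level was 51.6% lower than the untreated one (log2 fold change -1.02, standard error 0.049, limma adjusted p = 2.7e-05). GINS2 (ENSG00000131153, chromosome 16, 85676198 to 85690073, minus strand), the PSF2 subunit, measured 15.9, 15.7 and 15.9 FPKM in the untreated libraries and 11.9, 11.8 and 11.7 FPKM after IFNβ, with almost no spread within either group (log2 fold change -0.42, standard error 0.021, limma adjusted p = 3.0e-05). GINS3 (ENSG00000181938, chromosome 16, 58295080 to 58406144, plus strand), the PSF3 subunit, measured 4.94, 4.49 and 4.84 FPKM in the untreated libraries and 5.63, 5.69 and 5.47 FPKM after IFNβ, so this subunit rose (log2 fold change 0.23, standard error 0.046, limma adjusted p = 0.0099). GINS1, the PSF1 subunit, stood at 0.014 with a 95% interval of -0.068 to 0.10, and its groups overlapped. Within a complex of 4 subunits, 2 were thus lower, 1 was higher and 1 did not pass.

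The kinase and the other activation factors fell together. CDC7 (ENSG00000097046, chromosome 1, 91500893 to 91525764, plus strand), the kinase that phosphorylates the MCM ring, measured 13.1, 13.4 and 12.2 FPKM in the untreated libraries and 10.7, 10.6 and 10.6 FPKM after IFNβ (log2 fold change -0.27, standard error 0.037, limma adjusted p = 0.0019). The log2 fold change of DBF4, its activating subunit, was -0.23, close to that of its kinase. MCM10, which is needed for origin firing, stood at -0.25, and CDC45, the helicase cofactor that travels with MCM and GINS, at -0.23. None of these 4 genes had overlapping groups, and 4294 of the 11996 genes with a mean of at least 1 FPKM also lay entirely below.

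All 6 genes of the clamp and its loader had negative log2 fold changes, and 4 of them passed. PCNA, the sliding clamp that holds polymerases on DNA, was the most abundant of the 43 genes per length and went from 173 ± 2.63 to 157 ± 2.14 FPKM (mean ± S.D., n = 3 each). Its log2 fold change was -0.14 (limma adjusted p = 0.0021). With quantile normalization it was -0.080 and no longer passed. RFC5 (ENSG00000111445, chromosome 12, 118013588 to 118033130, plus strand), a small subunit of the clamp loader, measured 15.2, 15.2 and 15.3 FPKM in the untreated libraries and 12.6, 13.1 and 12.7 FPKM after IFNβ. The untreated libraries of RFC5 were nearly identical and the treated ones all lower (log2 fold change -0.25, standard error 0.024, limma adjusted p = 0.00048). RFC2 (ENSG00000049541, chromosome 7, 74231499 to 74254458, minus strand) measured 31.2, 32.3 and 31.8 FPKM in the untreated libraries and 28.7, 29.3 and 26.6 FPKM after IFNβ (log2 fold change -0.17, standard error 0.039, limma adjusted p = 0.017), and RFC4 (ENSG00000163918, chromosome 3, 186789880 to 186807058, minus strand) measured 18.5, 19.0 and 19.9 FPKM in the untreated libraries and 17.5, 17.2 and 17.1 FPKM after IFNβ (log2 fold change -0.15, standard error 0.032, limma adjusted p = 0.014). The treated libraries of RFC2 were spread widely and those of RFC4 narrowly, and neither gene had overlapping groups. The call of RFC2 was lost without the second or the third untreated library (log2 fold changes -0.16 and -0.17), and that of RFC4 without the second or the third treated library (-0.14 in both). RFC1, the large subunit, at -0.063 (-0.11 to -0.015), and RFC3, at -0.088 (-0.15 to -0.021), just missed the threshold, with limma adjusted p-values of 0.056 and 0.052 and no overlap between groups. RFC3 passed without the first treated library, at -0.11.

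Of the 6 polymerase genes 3 fell, 1 rose and 2 did not pass. With 28.3% lower and 21.1% higher among genes with a mean of at least 1 FPKM, these counts are not read as a result about the role. The polymerase α-primase complex starts each new strand with a short RNA and DNA primer. PRIM1 (ENSG00000198056, chromosome 12, 56731596 to 56752373, minus strand), the catalytic primase subunit, measured 14.5, 13.6 and 13.3 FPKM in the untreated libraries and 10.1, 9.17 and 9.77 FPKM after IFNβ (log2 fold change -0.51, standard error 0.05, limma adjusted p = 0.00054). POLA1 (ENSG00000101868, chromosome X, 24693919 to 24996986, plus strand), the catalytic subunit of polymerase α, measured 3.92, 3.89 and 4.10 FPKM in the untreated libraries and 2.94, 2.88 and 2.71 FPKM after IFNβ (log2 fold change -0.47, standard error 0.049, limma adjusted p = 0.00072). POLA2 (ENSG00000014138, chromosome 11, 65261762 to 65305589, plus strand), the accessory subunit of the same complex, was the least abundant of the 43 genes per length and measured 1.09, 1.12 and 0.979 FPKM in the untreated libraries and 1.48, 1.33 and 1.27 FPKM after IFNβ. It was higher in every treated library, but its standard error was the largest among the polymerase genes (log2 fold change 0.32, standard error 0.097, limma adjusted p = 0.046). The call of POLA2 was lost when any 1 of the 6 libraries was left out, with log2 fold changes between 0.27 and 0.37.

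Polymerase ε copies the leading strand and polymerase δ the lagging strand, and neither catalytic subunit passed the test. POLE, the catalytic subunit of polymerase ε, stood at -0.023 (-0.10 to 0.058), and POLD1, that of polymerase δ, at 0.060 (-0.020 to 0.14). The groups overlapped for both. POLE2, the second subunit of polymerase ε, was lower at -0.32 (limma adjusted p = 0.004).

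Among the 4 genes of single-strand binding and Okazaki fragment processing 2 fell and 2 did not pass. With 28.3% lower among genes with a mean of at least 1 FPKM, this count is not read as a result about so small a role. FEN1 (ENSG00000168496, chromosome 11, 61792637 to 61797244, plus strand), the nuclease that removes the 5′ flap of Okazaki fragments, measured 123, 127 and 129 FPKM in the untreated libraries and 110.2, 114 and 115 FPKM after IFNβ (log2 fold change -0.16, standard error 0.026, limma adjusted p = 0.0046). RPA1 (ENSG00000132383, chromosome 17, 1829702 to 1900082, plus strand), the large subunit of the single-strand binding protein RPA, measured 32.7, 32.7 and 30.9 FPKM in the untreated libraries and 28.8, 29.4 and 29.1 FPKM after IFNβ (log2 fold change -0.14, standard error 0.027, limma adjusted p = 0.0089). Both decreases were about 10% in size, at -10.5% for FEN1 and -9.46% for RPA1. RPA2, the middle subunit of RPA, stood at 0.011 (-0.059 to 0.080) with overlapping groups, and LIG1, the ligase that joins Okazaki fragments, at -0.070 (-0.15 to 0.013) without overlap.

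The 2 subunits of ribonucleotide reductase, which makes the deoxynucleotides for replication, moved in opposite directions. RRM1 (ENSG00000167325, chromosome 11, 4094707 to 4138876, plus strand), the large subunit with the catalytic and regulatory sites, measured 60.2, 57.5 and 56.6 FPKM in the untreated libraries and 43.7, 42.8 and 42.4 FPKM after IFNβ (log2 fold change -0.43, standard error 0.028, limma adjusted p = 9.3e-05). RRM2 (ENSG00000171848, chromosome 2, 10120698 to 10131419, plus strand), the small subunit that carries the radical and is made in S phase, measured 32.5, 32.2 and 32.4 FPKM in the untreated libraries and 37.2, 36.2 and 36.7 FPKM after IFNβ (log2 fold change 0.18, standard error 0.018, limma adjusted p = 0.00056). The RRM1 libraries of treated cells lay below all untreated ones, and those of RRM2 lay above.

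All 5 regulators of the G1/S transition fell, with a median log2 fold change of -0.45. E2F2 (ENSG00000007968, chromosome 1, 23506430 to 23531220, minus strand), an activating E2F factor, measured 2.37, 2.20 and 2.71 FPKM in the untreated libraries and 1.52, 1.24 and 1.48 FPKM after IFNβ. Its libraries were the most variable of the 5 genes, yet the groups did not overlap (log2 fold change -0.74, standard error 0.11, limma adjusted p = 0.0031). CCNE1 (ENSG00000105173, chromosome 19, 29811898 to 29824308, plus strand), which encodes cyclin E1, measured 4.50, 4.38 and 4.56 FPKM in the untreated libraries and 2.68, 3.07 and 3.32 FPKM after IFNβ (log2 fold change -0.56, standard error 0.079, limma adjusted p = 0.0025). E2F1 (ENSG00000101412, chromosome 20, 33675683 to 33686404, minus strand), the main activating E2F factor, measured 18.9, 20.5 and 21.7 FPKM in the untreated libraries and 14.9, 15.1 and 14.6 FPKM after IFNβ, and the treated libraries lay close together (log2 fold change -0.45, standard error 0.05, limma adjusted p = 0.00091). The log2 fold change was -0.39 for CCNE2, which encodes cyclin E2, and -0.38 for UHRF1, which brings the maintenance methyltransferase DNMT1 to newly copied DNA.

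The partners of a complex can be compared within each library, where depth cancels. The following 8 ratios of FPKM were chosen after the values had been seen, so they are given as a description without a test. The size of a ratio depends on the gene lengths that the authors used, and its change between libraries does not. The ratio of RRM1 to RRM2 was 1.86, 1.79 and 1.75 in the untreated and 1.17, 1.18 and 1.16 in the treated libraries. That of GINS4 to GINS3 was 1.41, 1.45 and 1.35 before and 0.543, 0.580 and 0.607 after IFNβ, so GINS4 had the higher FPKM before and GINS3 after IFNβ. The ratio of POLA1 to POLA2 went from 3.75 ± 0.385 (S.D., n = 3) to 2.10 ± 0.0933 (S.D., n = 3), and that of ORC2 to ORC6 from 0.961 ± 0.0374 to 0.670 ± 0.0548. GINS2 to GINS1 went from 1.86 ± 0.0792 to 1.37 ± 0.0287, MCM6 to MCM7 from 0.392 ± 0.00805 to 0.293 ± 0.00362, and POLE2 to POLE from 0.497 ± 0.0135 to 0.403 ± 0.0186. The ratio of GMNN to CDT1, inhibitor to target, was 0.876 ± 0.0591 and 0.831 ± 0.0137, and its groups overlapped, unlike those of the other 7 ratios.

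**Figure D4:**
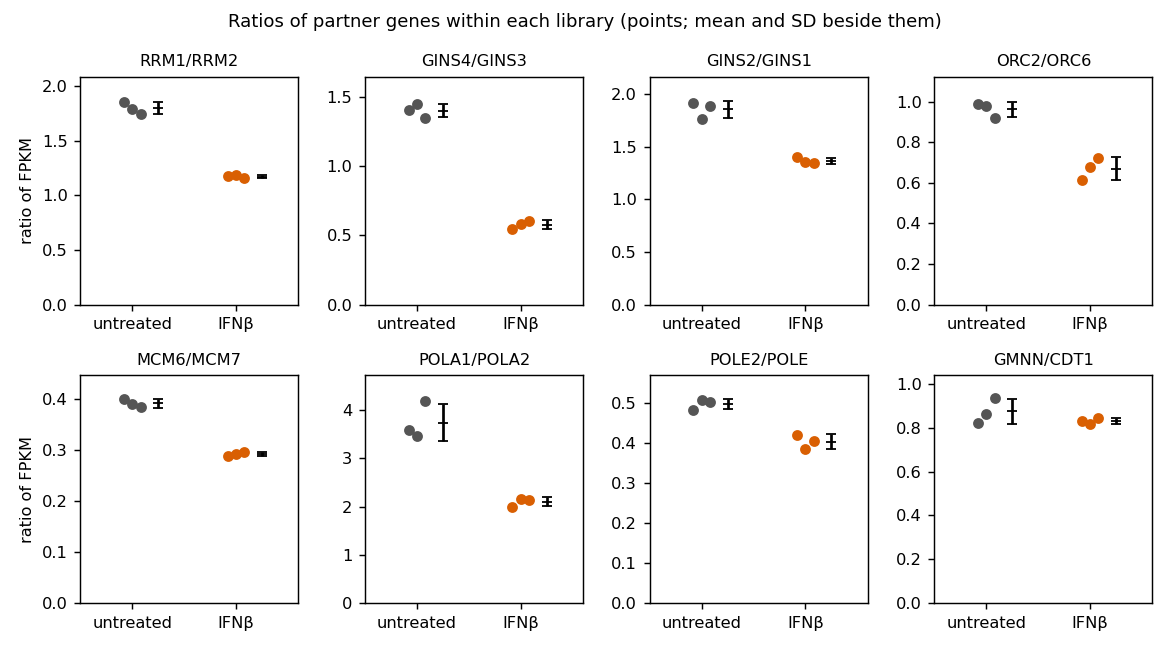
Ratio of the FPKM of 2 partner genes within each library (points), with the mean and S.D. of each group of 3 beside them, for 8 pairs; each axis starts at 0. The treated libraries lie below the untreated ones in 7 pairs and overlap them for GMNN/CDT1.

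Genes of the same pathways outside the 43 were read from the same fit. Of 34 further replisome and origin genes 10 were lower (29.4%) and 5 were higher (14.7%), with a median log2 fold change of -0.12. Among genes with a mean of at least 1 FPKM 28.3% were lower and 21.1% higher. Some of the 34 lay below that level, such as CHTF8 and MCM9 at a mean of 0.193 and 0.773 FPKM. Log2 fold changes were negative for 26 of the 34, and for 6625 of the 11996 genes at that level, whose median was -0.034. The 4 with the largest changes among those that passed were CDCA7 (-0.56), a chromatin remodelling partner of HELLS, POLD2 (-0.46), a subunit of polymerase δ, ORC5 (-0.42), and PRIM2 (-0.33), the large primase subunit. As with ORC2 and ORC6, subunits of the origin recognition complex differed in direction, since ORC3 and ORC4 were among the 5 that rose, at 0.17 and 0.15. ORC3 and ORC4 were named after their values had been seen.

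Most of the nucleotide supply genes were lower. Of 12 genes 8 were lower (66.7%) and 2 were higher (16.7%), with a median of -0.21. The shares among genes with a mean of at least 1 FPKM were 28.3% lower and 21.1% higher. SAMHD1, which breaks down deoxynucleoside triphosphates and is a known interferon-stimulated gene, measured 2.59, 2.73 and 2.52 FPKM in the untreated libraries and 44.1, 43.8 and 42.9 FPKM after IFNβ (log2 fold change 4.01, standard error 0.035, limma adjusted p = 9.0e-09). DTYMK, the thymidylate kinase, fell by 0.45 on the log2 scale and TYMS, the thymidylate synthase, by 0.32. The other gene of the list that rose was TK1, the thymidine kinase of the salvage pathway, at 0.11, named after its value had been seen. Among genes that act in making deoxynucleotides, RRM1, DTYMK and TYMS were thus lower, and RRM2 and TK1 higher.

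Of 16 genes of fork protection and the replication checkpoint 5 were lower (31.2%) and 2 were higher (12.5%). Their median log2 fold change was -0.047. The share of lower genes was near that of genes with a mean of at least 1 FPKM, 28.3%. BRCA2, which protects stalled forks, was the one with the largest change, at 0.53, and HUS1 of the 9-1-1 clamp, TIMELESS of the fork protection complex and the checkpoint kinase CHEK1 stood at -0.30, -0.18 and -0.18. The call of HUS1 was lost without the first or the third untreated or the first or second treated library (log2 fold changes -0.31 to -0.24), and that of CHEK1 without the second untreated or the first or second treated library (-0.17 to -0.15). Of 9 chromatin assembly genes 3 were lower and 3 were higher (33.3% each), beside 28.3% and 21.1% of genes with a mean of at least 1 FPKM. The genes that passed included the histone chaperone ASF1A at 0.50. RBBP4 and CHAF1B of the CAF-1 complex and the histone mRNA binding protein SLBP stood at -0.22, -0.19 and -0.16.

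Among 33 further G1/S control genes, 31 were tested, 12 were lower (38.7%) and 4 were higher (12.9%), with a median of -0.045. The shares among genes with a mean of at least 1 FPKM were 28.3% lower and 21.1% higher. Some tested genes of the list lay below that level, such as CDKN1C and LIN37 at a mean of 0.129 and 0.335 FPKM. CCND3, which encodes cyclin D3, measured 12.3, 12.0 and 12.1 FPKM in the untreated libraries and 23.9, 22.9 and 23.2 FPKM after IFNβ (log2 fold change 0.94, standard error 0.025, limma adjusted p = 1.8e-06). E2F8, a repressing E2F factor, stood at -0.71, CDK4, the partner of D cyclins, at -0.26, and CDKN1B, which encodes the inhibitor p27, at 0.34. CDKN2A and CDKN2B, which encode CDK4 inhibitors, were listed at 0 in all 6 libraries, where 3 fragments would be worth between 0.0211 and 0.0324 FPKM. For comparison with another stage of the cell cycle, 20 of 30 mitosis genes (66.7%) were lower and 1 was higher, with a median log2 fold change of -0.23 beside -0.17 for the replication genes. The difference between these lists was not tested.

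**Figure D5:**
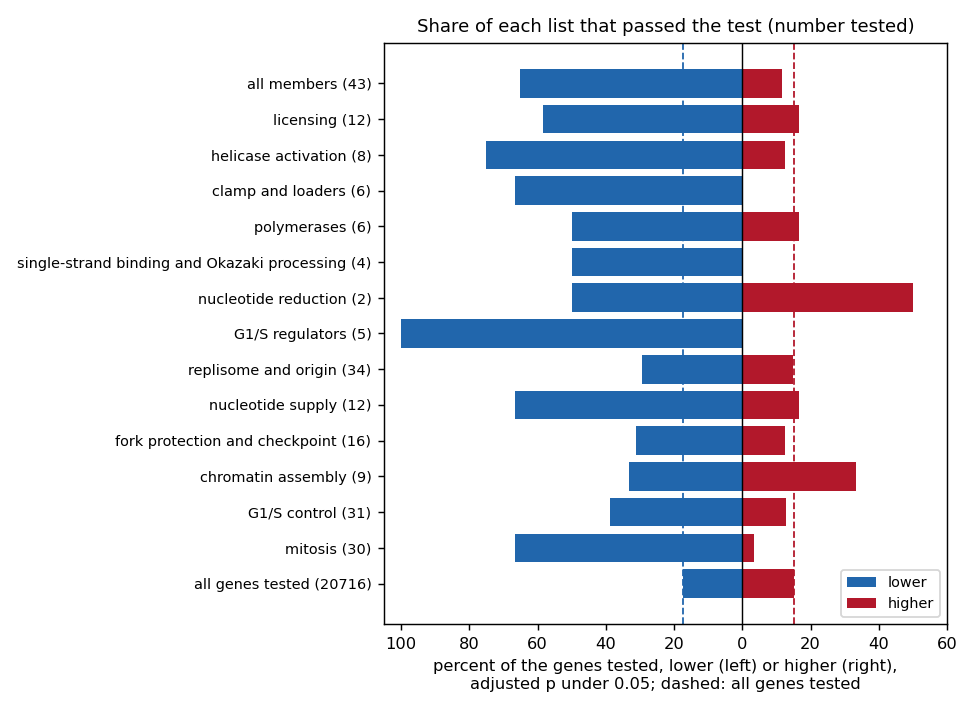
Percent of the tested genes of each list that were lower (bars to the left) or higher (bars to the right) after IFNβ at an adjusted p-value under 0.05, with the number tested in brackets and dashed lines at the shares of all genes tested, 17.5% and 15.2%. The shares among genes with a mean of at least 1 FPKM, 28.3% lower and 21.1% higher, are not drawn. The replication genes and the mitosis genes have nearly the same share of lower genes, 65.1% and 66.7%.

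Some of these values rest on how fragments were assigned, and whether the counting used strand is not given in the sources used here. By GENCODE release 29, an antisense gene overlaps 21.2% of the exon length of GINS4, 22.7% of MCM2 and 10.9% of GINS3, INTS8 overlaps 37.1% of CCNE2 on the opposite strand, and a same-strand gene model shares 35.1% of the exon length of POLA2, 20.2% of RRM2 and 14.9% of PRIM1. Genes of the other lists are affected too, such as TYMS (39.15%) and CDK4 (43.21%) on the opposite strand. Same-strand models share 62.16% of NUSAP1 and 57.57% of PRC1, 2 mitosis genes that did not pass. The gene length that the authors divided by, as recovered from the FPKM, was 15547 bases for POLA1 and 12006 for POLA2, against 6336 and 5726 in this release. It was likewise longer for RRM2 (9153 against 5323), LIG1 (11348 against 6576), GINS1 (8017 against 4068), MCM4 (9852 against 6973) and PRIM1 (3309 against 2437). For some genes it was shorter, such as POLE (12364 against 16609) and CDT1 (2760 against 3336). How the levels and fold changes of these genes would come out with the models of this release was not tested. The 13 listed pseudogenes of these genes reached at most 0.127 FPKM.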

How the data were processed

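RNA of 3 untreated and 3 IFNβ-treated HT1080 libraries was read paired-end on a NovaSeq 6000. The submitters' processing notes name fastp, HISAT2, StringTie and GRCh38, and the study's methods name DESeq2 for differential expression. The annotation is not given in the sources used here. The deposited FPKM, 1 value per gene and library, are the authors' own. As FPKM are not counts, limma (3.58.1, R 4.3.3) was fitted on log2(FPKM + 0.1) with an intensity trend and no covariate, for genes with a mean of at least 0.1 FPKM, and fold changes on this scale understate those of low genes. Values were called at a Benjamini-Hochberg adjusted p-value under 0.05. With 3 libraries against 3, the exact two-sided permutation test cannot reach a p below 0.10. Whole fragments were recovered for 100% of the 35303 genes above 0 and made up 99.7% of each library. Locations are from GENCODE release 29, which lacks 4436 of the gene IDs, and promoters from RefSeq (GRCh38.p14). Genes and lists were chosen with earlier results of these data known. Values by library are given for up to 3 genes with the largest changes of each role and for each gene that rose, and the 4 largest called changes are named for each further list. Some genes that this rule covers are not reported here. The procedure was tested on simulated data. The alternatives were other pseudocounts, filters, scalings and thresholds, no trend, a replicate block, limma-voom on the recovered fragments, and each library left out in turn. Python (pandas 2.3.3, numpy 2.4.6, scipy 1.17.1, matplotlib 3.10.9) was used for the other steps.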

Additional observations from a re-analysis of the deposited data

How the results depend on the processing

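Of the 33 replication genes that passed, 27 (23 lower and 4 higher) kept their call in all 17 alternatives that did not add a fold threshold. The exceptions were ORC2, RFC2, RFC4, RPA1, PCNA and POLA2, and RFC1 and RFC3 passed in 3 alternatives each. The number of lower replication genes ranged from 24 without the intensity trend to 30 with a mean of at least 1 FPKM, and from 26 to 28 with 1 library left out, when 4 genes were higher. Their median stayed between -0.19 and -0.16, while quantile normalization moved the calls over all genes to 4121 lower and 2660 higher. With a log2 fold change of at least 1 as a further condition, 1 replication gene was lower and 0 were higher by limma, against 28 and 5 without it, 153 of all genes were lower and 722 higher, and of the 46 other replication and nucleotide genes 0 were lower and 1 was higher. At an adjusted p-value under 0.01, 2330 of all genes were lower and 2011 higher. The 7 higher genes among those 46 became 3 at that threshold, 3 without the trend, and 4 to 5 with 1 library left out, with 4 without the second untreated or the first treated library. The sign changed only for genes that did not pass. With 1 library left out, the log2 fold change ranged from -0.017 to 0.016 for ORC1, -0.055 to 0.0069 for CDC6, -0.0073 to 0.042 for GINS1, -0.042 to 0.0029 for POLE and -0.013 to 0.027 for RPA2. ORC1 became 0.012 with equal totals and 0.011 by median ratio and turned positive without the third untreated or the second treated library (0.016 and 0.012). GINS1 became -0.0089 with quantile normalization and -0.0073 without the first untreated library, and CDC6 became 0.0069 without that library. RPA2 became -0.013 without the third untreated and -0.0076 without the third treated library, and POLE became 0.0029 without the latter. The causes were not tested. With the replicate number as a block, 28 replication genes were lower and 4 higher, and POLA2 was the one that lost its call. The study's methods name no block, so the numbers were not taken as pairs in the main fit. Libraries of the same number correlated at 0.0532, -0.0183 and 0.122 in their deviations from the group means. At these depths all 43 genes rest on at least 169 fragments per library.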

Other observations

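Several replication genes start close to the start of a gene on the opposite strand. By GENCODE release 29, 16 of the 43 had a protein-coding neighbour whose start lay within 1000 bases, and 14 of these neighbours were tested, of which 3 were lower, 1 was higher and 10 did not pass. Among all genes with a mean of at least 1 FPKM 28.3% were lower and 21.1% higher, so these counts do not exceed that background. HSD17B6, the neighbour of PRIM1, lay below that level at 0.512 FPKM in untreated and 0.366 FPKM in treated cells. PRKDC, which encodes the DNA-dependent protein kinase of double-strand break repair and starts 2 bases from MCM4, measured 35.0 ± 0.494 FPKM in untreated and 23.1 ± 0.124 FPKM in treated cells (mean ± S.D., n = 3 each). Its log2 fold change of -0.59 (limma adjusted p = 3.7e-06) stands beside -0.18 for MCM4. SLC25A40, a mitochondrial carrier beside DBF4, stood at -0.24, next to -0.23 for DBF4, and AP4M1, an adaptor protein subunit beside MCM7, at -0.37. TPRA1 beside MCM2 rose by 0.15 on the log2 scale while MCM2 fell. The neighbours of the replication genes with the largest rise and the highest level did not pass, with VPS35 at 0.034 beside ORC6 and CDS2 at 0.015 beside PCNA. The exons of AP4M1, SLC25A40 and TPRA1 overlap those of their partner on the other strand by 392, 142 and 45 bases. These neighbours were looked up after the replication genes' values had been seen, and whether they share a promoter or regulation was not tested.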
